A study of Mus musculus with 56 samples.

Results

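Skeletal muscle contracts through sarcomeres, in which myosin heads of the thick filament pull on actin thin filaments once calcium binds troponin. Muscle fibres come in fast and slow types, and many sarcomere and calcium-handling proteins exist as a fast and a slow isoform encoded by separate genes. The set described here holds 42 muscle genes chosen by name for their role in contraction or fibre type, all of them present among the 13074 genes of the muscle table. It comprises 13 fast isoforms, 10 slow isoforms, 2 developmental myosins and 10 sarcomere genes listed as shared, among them the mainly fast Tpm1 and slow Tpm3. The rest are 3 genes of membrane excitation and calcium release, 2 genes of energy and oxygen supply and 2 ubiquitin ligases. Their exons accounted for 309 of 15777 skipped-exon events and 130 of 2018 events of mutually exclusive exons listed for muscle. Bulk RNA was sequenced from muscle labelled as Fmr1 knockout (KO) and as wild type (WT), with 3 samples for each label, and from 5 other tissues with the same design. Fmr1 encodes FMRP, an RNA-binding protein best known for its absence in fragile X syndrome. The labels name tissue and genotype. Allele, strain, age, sex and the muscle dissected were not given in the sources used here. The muscle value columns carry the tissue code GA, which the labels do not spell out. Nothing in the labels says whether the samples came from separate animals, so p-values measure only the spread between these samples.

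Muscle libraries held 13934559 to 15386794 counts, of which the 42 genes took 24.8% to 27.9%. Acta1 and Ckm, the skeletal actin and muscle creatine kinase that mark this tissue, were abundant in both genotypes, at means of 43564 TPM in WT and 42350 TPM in KO for Acta1 and of 31932 and 30862 TPM for Ckm. TPM is the authors' length-corrected transcript measure. Fmr1 had 11.99, 17.6 and 14.2 CPM (counts scaled to library size) in the WT libraries and 8.06, 10.2 and 10.3 CPM in the KO libraries. The groups did not overlap, but the log2 fold change of -0.61 ± 0.17 (SE) did not pass the edgeR quasi-likelihood test (Benjamini-Hochberg adjusted p = 0.0734), while DESeq2 (adjusted p = 0.0351) and the authors' deposited table (adjusted p = 0.0414) call it. Fmr1 reads were thus fewer but still present in the libraries labelled KO, at 0.654 times the WT level, so the gene's total does not show a loss of the transcript. Which part of the gene the allele alters is not known here, and WT and KO below stand for the libraries so labelled. Summed markers of fibroblasts, macrophages, adipocytes and tendon were higher in each KO library than in each WT library. The summed level of 6 fibroblast markers was 1755 to 2786 CPM in WT and 3563 to 4681 CPM in KO, and that of the 5 macrophage markers in the table was 77.03 to 93.2 CPM in WT and 147 to 159 CPM in KO (Adgre1 of that list was not in the table). Adipocyte markers summed to 65.7 to 98.9 CPM in WT and 119 to 302 CPM in KO, and 5 tendon markers to 245 to 440 CPM in WT and 444 to 1030 CPM in KO. Of these lists edgeR called 4 of 6, 4 of 5, 0 of 6 and 1 of 5 genes higher, and none lower. Over all tested genes it called 3% higher and 1.03% lower. Summed markers overlapped between genotypes for heart (4 of 9 in the table, with Nppa, Nppb, Tnni3, Myl7 and Mybpc3 not in it), smooth muscle, satellite cells, endothelium, neutrophils, red cells, Schwann cells and keratinocytes (1 of 4 in the table, 36.2 CPM in WT 3 and at most 3.41 CPM elsewhere). Their part in the results below was not tested, and in bulk tissue fewer cells of a type and less RNA per cell cannot be told apart.

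The first question was which of the 42 genes differed between KO and WT muscle. Myh1 was lower and Mybph was higher in KO, and the other 40 did not pass the test. All 42 were tested. The background was 4.04% of the 12688 tested genes called in either direction, so 2 calls among 42 lie near it. DESeq2 called 1 of the 42 higher and 6 lower, against a background of 5.11% higher and 3.45% lower (8.56% in all). The authors' deposited table lists 7 of the 42 with an adjusted p under 0.05, 1 higher and 6 lower, against 4.86% of its genes higher and 3.75% lower (8.61% in all).

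Myh1 encodes myosin heavy chain IIx, a motor of fast fibres (chromosome 11, 67200052 to 67224575, plus strand, GRCm38). It had 8605, 5247 and 5524 CPM in WT libraries 1 to 3 and 3190, 3152 and 3638 CPM in KO libraries 1 to 3. Every KO library lay below every WT library, and WT 1 stood above the other WT libraries. The log2 fold change was -0.96 ± 0.19 (edgeR, adjusted p = 0.033). The adjusted p rose to 0.117, 0.0851 and 0.147 when KO 1, KO 2 or KO 3 was left out, so that the call needed all 3 KO libraries, although the estimate stayed between -0.70 and -1.08 over all 13 fits.

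Mybph encodes myosin binding protein H, a thick-filament protein (chromosome 1, 134193448 to 134201232, plus strand). Its WT libraries had 37.0, 186 and 88.9 CPM and its KO libraries 398, 392 and 377 CPM. The KO libraries were close to each other and above every WT library, while the WT libraries were widely spread. The log2 fold change was 1.90 ± 0.44 (edgeR, adjusted p = 0.0471). Leaving out WT 3, KO 1, KO 2 or KO 3 raised the adjusted p to 0.0825, 0.117, 0.0973 and 0.174.

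**Figure D1:**
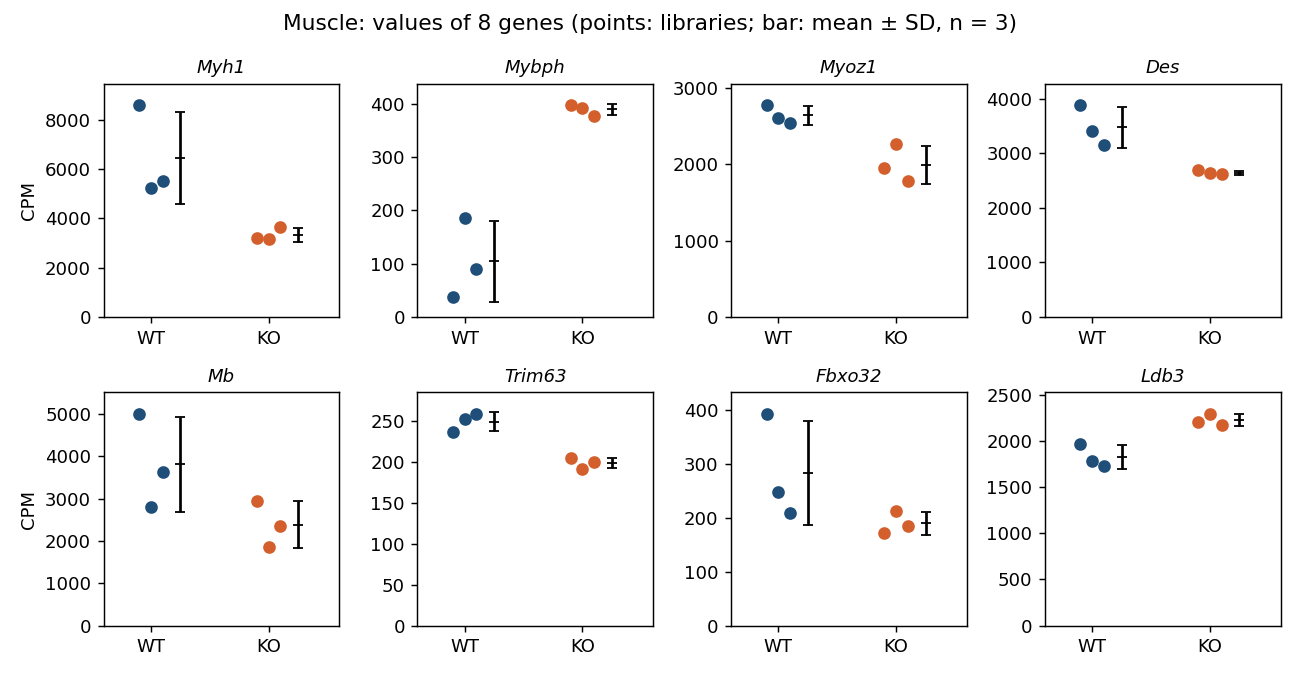
CPM of 8 of the genes in each muscle library (points) with the mean and SD of 3 libraries per genotype. Myh1 and Mybph passed the edgeR test, and the other 6 genes did not.

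The size of the shift of the whole set, and the sign of single genes, depended on the scaling and on single libraries, WT 1 above all. With TMM factors, 38 of the 42 genes had a log2 fold change under 0, with a median of -0.26, against 50.3% of all tested genes and a median of -0.00258. Scaling by total counts alone moved the median of all genes to 0.15, left 30 of the 42 under 0 and gave them a median of -0.11. In the authors' TPM, as log2 ratios with 0.01 added, the median of all genes was 0.22, 27 of the 42 were under 0 and their median was -0.04. Relative to the median of all genes, the median of the set was -0.26 under each of these 3 scalings. Changing the scaling shifts all genes by nearly the same amount, so this match was built in. Without WT 1, 26 of the 42 were under 0, and their median was -0.14 beside 0.000362 for all genes. Leaving out any other library left 33 to 39 under 0.

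**Figure D2:**
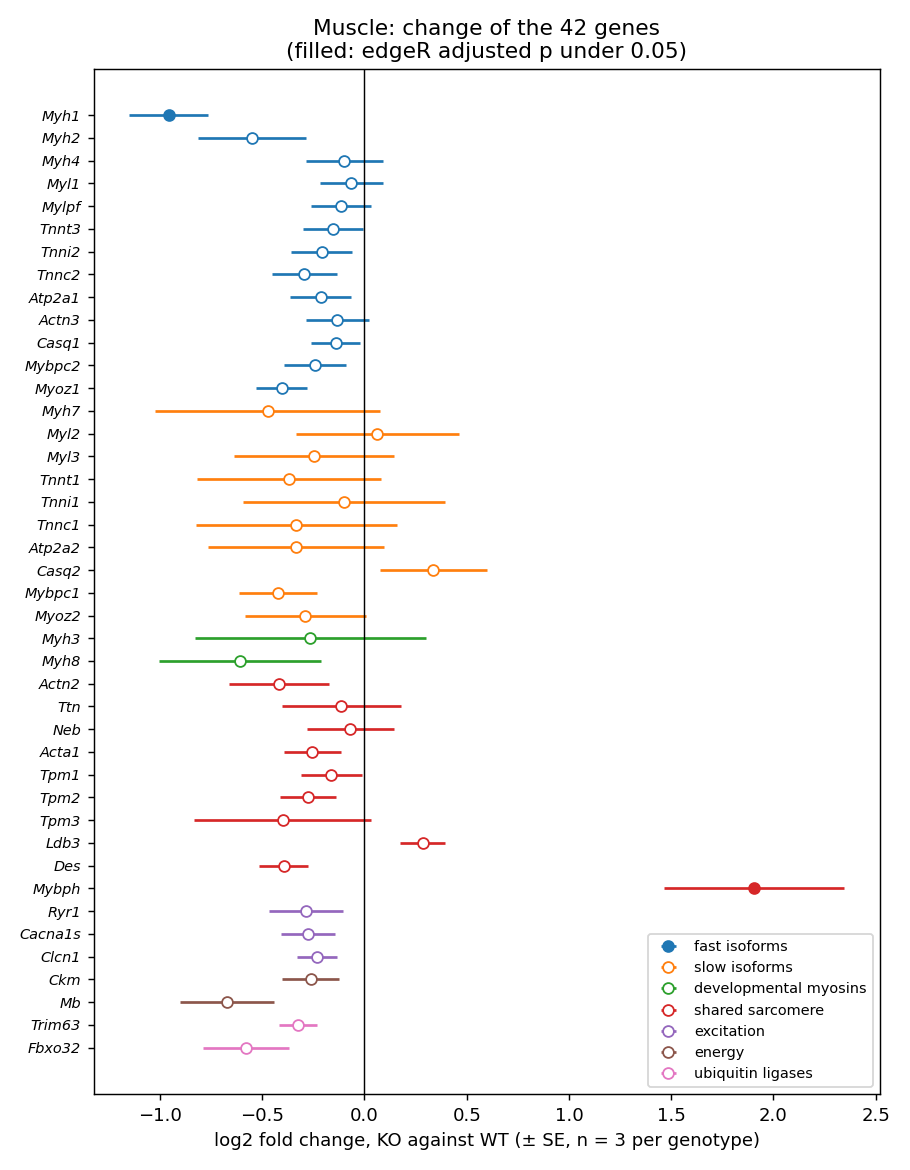
Log2 fold change of each of the 42 genes in muscle, KO against WT, with its standard error from edgeR (n = 3 per genotype, TMM scaling). Filled points passed at an adjusted p under 0.05. Of the 42 points, 38 lie left of 0, and a fit without WT 1 puts 26 there. Errors are wide for most slow isoforms, up to 0.55 for Myh7, and widest for the developmental myosin Myh3 (0.56).

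Among the 13 fast isoforms, Myh1 alone was called by edgeR, 1 of 13 against 1.03% of all genes called lower. All 13 were under 0 with TMM factors (median -0.21), but 8 of 13 were under 0 with total counts and 6 of 13 in TPM. Leaving out 1 library kept 11 to 13 under 0, with medians from -0.27 (without KO 2) to -0.12 (without KO 3). Myh4, the motor of the fastest fibres, was the most abundant myosin at 51453, 46997 and 36469 CPM in WT and 35855, 49020 and 41114 CPM in KO. These groups overlapped (log2 fold change -0.10 ± 0.19, adjusted p = 0.765). Myh2, the motor of fast oxidative fibres, had 5030, 2818 and 2812 CPM in WT and 2720, 1699 and 2867 CPM in KO (-0.55 ± 0.26, adjusted p = 0.223). Myoz1, a Z-disc protein of fast fibres that binds calcineurin, was at 2778, 2609 and 2534 CPM in WT and 1947, 2263 and 1774 CPM in KO. Its groups did not overlap, and the change of -0.40 ± 0.13 was called by DESeq2 (adjusted p = 0.0132) but not by edgeR (adjusted p = 0.0918). The fast troponins were not called. Tnnt3, which ties the troponin complex to tropomyosin, gave -0.15 ± 0.15, the inhibitory subunit Tnni2 -0.21 ± 0.15 and the calcium-binding subunit Tnnc2 -0.29 ± 0.16. Fast light chains Myl1 and Mylpf gave -0.06 ± 0.15 and -0.11 ± 0.14. The fast calcium pump Atp2a1, which returns calcium to the sarcoplasmic reticulum, gave -0.21 ± 0.15, and the calcium store protein Casq1 gave -0.14 ± 0.12. Actn3, a fast-fibre Z-disc crosslinker, and Mybpc2, fast myosin binding protein C, gave -0.13 ± 0.15 and -0.24 ± 0.15. None of these 9 genes passed the edgeR test.

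None of the 10 slow isoforms was called by edgeR or by DESeq2, and none had an unadjusted edgeR p under 0.05. Of these genes, 8 were under 0 (median -0.31), with standard errors of up to 0.55. Myh7, the motor of slow fibres, had 2320, 1067 and 563 CPM in WT and 1500, 340 and 1003 CPM in KO. The highest library was 6.82 times the lowest, and the groups overlapped (-0.47 ± 0.55, adjusted p = 0.611). Myl2, a slow light chain, had 523, 330 and 247 CPM in WT and 584, 169 and 396 CPM in KO. All 10 slow isoforms were lowest in KO 2, and 8 were highest in WT 1 and the other 2 in KO 1. Their highest-to-lowest ratio ran from 2.07 to 6.82 (median 3.97), against 1.26 to 2.96 (median 1.42) for the 13 fast isoforms. Without WT 1, 1 of the 10 was under 0 and the median was 0.19; without KO 2, 4 of 10 were under 0 and the median was 0.03. Slow troponins Tnnt1, Tnni1 and Tnnc1 gave -0.37 ± 0.45, -0.10 ± 0.50 and -0.33 ± 0.49. The slow and cardiac calcium pump Atp2a2 gave -0.34 ± 0.43, and Casq2, the cardiac and slow calcium store protein, gave 0.34 ± 0.26. Slow myosin binding protein C, Mybpc1, had the smallest spread of the 10 and gave -0.42 ± 0.19 (adjusted p = 0.201), while Myl3 and Myoz2 gave -0.25 ± 0.39 and -0.29 ± 0.30.

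**Figure D3:**
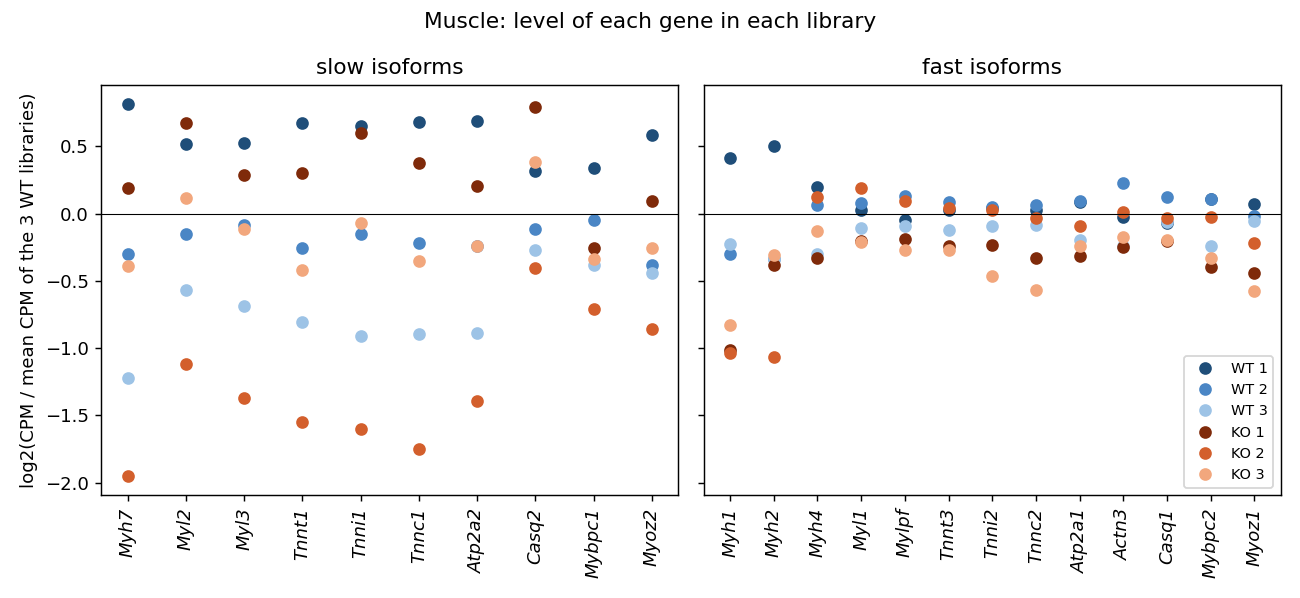
Level of each slow and fast isoform in each muscle library, as log2 of its CPM over the mean CPM of the 3 WT libraries. KO 2 is lowest for all 10 slow isoforms, while most fast isoforms lie within a narrow band.

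The share of slow isoforms in the summed slow and fast signal, in counts per kilobase of exon, was 3.47%, 2.11% and 1.73% in WT and 3.48%, 1.07% and 2.63% in KO. The means were 2.44 ± 0.92% and 2.39 ± 1.22% (SD, n = 3), a difference of -0.0428 percentage points that is far inside the spread of either group. Among the 4 adult myosins in TPM, Myh4 made up 80.2 ± 3.70% in WT and 85.97 ± 3.95% in KO. The Myh1 share was 12.8%, 9.38% and 12.2% in WT and 7.40%, 5.83% and 7.51% in KO, with no overlap. Myh2 and Myh7 shares overlapped, at 6.18 ± 1.21% and 5.07 ± 1.71% for Myh2 and 2.19 ± 1.13% and 2.05 ± 1.42% for Myh7.

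**Figure D4:**
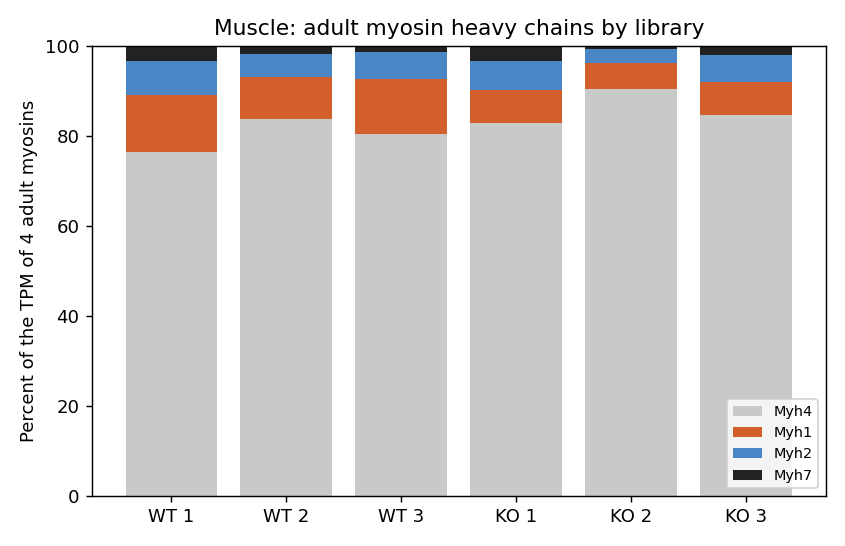
Percent of the summed TPM of the 4 adult myosin heavy chains taken by each in every muscle library. The Myh1 share lies between 9.38% and 12.8% in WT and between 5.83% and 7.51% in KO.

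The 2 developmental myosins Myh3 and Myh8, used before birth and in regenerating fibres, averaged 4.24 and 4.53 CPM in WT and 3.51 and 2.96 CPM in KO, and neither was called. Of the 10 shared sarcomere genes, Mybph alone was called by edgeR. Ldb3, a Z-disc scaffold, had 1971, 1783 and 1725 CPM in WT and 2209, 2295 and 2176 CPM in KO. Each KO library lay above each WT library, without a call (0.29 ± 0.11, adjusted p = 0.146). Des, the intermediate filament desmin, had 3884, 3400 and 3143 CPM in WT and 2684, 2633 and 2610 CPM in KO, a change of -0.40 ± 0.12 that DESeq2 called (adjusted p = 0.00956) and edgeR did not (0.0884). The giant proteins titin (Ttn) and nebulin (Neb), which set filament length, gave -0.11 ± 0.29 and -0.07 ± 0.21. Acta1, Actn2, Tpm1, Tpm2 and Tpm3, the actin, actinin and tropomyosins, gave between -0.42 and -0.16, with no call. Over the 42 genes, groups did not overlap for 10, with 8 lower and 2 higher in KO, against 15.1% of all tested genes lower and 16.3% higher (31.4% in all).

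The excitation genes were not called: the calcium release channel Ryr1 gave -0.29 ± 0.18, its voltage sensor Cacna1s -0.28 ± 0.13 and the chloride channel Clcn1 -0.23 ± 0.10. Mb, the oxygen-binding protein myoglobin, had 5007, 2794 and 3617 CPM in WT and 2954, 1847 and 2358 CPM in KO. Its groups overlapped through WT 2 and KO 1, and the change of -0.67 ± 0.23 was called by DESeq2 (adjusted p = 0.0151) and not by edgeR (0.112). Ckm gave -0.26 ± 0.14. Both ubiquitin ligases of muscle atrophy were lower in estimate without an edgeR call. Trim63 had 237, 253 and 259 CPM in WT and 205, 192 and 201 CPM in KO (-0.33 ± 0.09, adjusted p = 0.0757), and Fbxo32 had 393, 247 and 209 CPM in WT and 172, 213 and 185 CPM in KO, where WT 3 lay below KO 2 (-0.58 ± 0.21, adjusted p = 0.129). DESeq2 called both, at adjusted p = 0.0224 and 0.0361.

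Other genes of the pathway were read from lists. Of 46 other sarcomere genes tested, 3 were called lower and none higher (median -0.18), against 1.03% of all tested genes lower and 3% higher. They were Myh6, Tcap and Kbtbd13. Tcap, which caps titin at the Z-disc, had 3417, 2986 and 2802 CPM in WT and 2135, 1543 and 1953 CPM in KO (-0.71 ± 0.15). Myh6, a cardiac myosin, had 1.94, 49.99 and 32.2 CPM in WT and 2.10, 0.922 and 1.52 CPM in KO, so WT 1 lay among the KO libraries. Among 26 genes of excitation coupling and calcium handling, 22 glycolytic enzymes and 22 genes of oxidative metabolism, edgeR called none, with 6, 8 and 8 at an unadjusted p under 0.05, while DESeq2 called 3, 3 and 1 lower. The shares over all tested genes were 25.9% for such an unadjusted p and 3.45% for lower calls by DESeq2, so the first of these counts lies near that share. Their medians were -0.16, -0.21 and -0.27. Of 34 fibre-type regulators, 2 were called higher, against 3% of all genes, and none lower (median -0.13): Nfatc4 (0.98 ± 0.21), a calcineurin target, and Ppara (0.56 ± 0.13), a regulator of fatty acid oxidation. Of 20 immediate early genes, 7 were called lower, against 1.03% of all genes, with a median of -1.90. Egr1, which had the largest change among those called, had 76.3, 295 and 379 CPM in WT and 18.0, 8.30 and 13.1 CPM in KO. No gene of the lists of denervation response (13 tested, 3 at an unadjusted p under 0.05) and atrophy (24 tested, 7 at an unadjusted p under 0.05) was called by edgeR, and DESeq2 called no denervation gene and 1 higher and 1 lower atrophy gene.

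Splicing was read from junction reads of the 42 genes. The tables set 2 sets of 3 replicates against each other without saying which is WT. Differences are therefore given as set 1 minus set 2, with no genotype direction. In a Tnnt1 event, picked after its values were seen, reads of 1 form were 646, 144 and 379 in set 1 and 698, 346 and 257 in set 2. Tnnt1 counts ran in the same order over KO 1 to 3 (6023, 1541 and 3620) and WT 1 to 3 (7101, 3581 and 2516). Whether set 1 is KO was not tested, and no genotype was assigned. Neb runs along the thin filament as an actin ruler and is alternatively spliced near its Z-disc end. It held 10 of the 11 skipped-exon events that passed both the adjusted p and the minimum difference of 10 points. Exon 146 of Neb made up 2 of them, with different flanks. A quasi-binomial re-test called 11 of 279 tested skipped-exon events of the 42 genes, 10 in Neb and 1 in Ryr1, against 0.273% of the 11009 events tested. At an adjusted p under 0.05 and any difference there were 36, of which 21 were in Neb and 15 in other genes, against 0.636% of all events. Outside Neb, only Ryr1 passed 10 points among those 15. The authors' deposited table calls 9, of which 8 are in Neb and 1 in Ttn, against 1.36%. All Neb exons called lie between exons 138 and 150 of the 157 exons of transcript Neb-202 (chromosome 2, minus strand, GRCm38), are coding and have lengths that are multiples of 3.

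The 6 called Neb exons of largest difference are shown, read from the GENCODE M21 transcripts. Capitals mark TGCT or TGCC and also CGCT or CGCC, the core bound by MBNL splicing factors, on the transcript strand, where overlapping matches count separately.
Neb exon 138 (chr2:52165167-52165277): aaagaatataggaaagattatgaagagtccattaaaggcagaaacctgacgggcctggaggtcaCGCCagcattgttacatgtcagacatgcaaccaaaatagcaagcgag
Neb exon 140 (chr2:52163937-52164050): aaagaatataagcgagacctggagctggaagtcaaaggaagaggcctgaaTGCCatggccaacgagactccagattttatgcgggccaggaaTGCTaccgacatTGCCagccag
Neb exon 143 (chr2:52161371-52161475): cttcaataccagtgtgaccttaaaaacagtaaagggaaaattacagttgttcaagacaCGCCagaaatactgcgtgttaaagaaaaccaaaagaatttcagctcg
Neb exon 145 (chr2:52159477-52159569): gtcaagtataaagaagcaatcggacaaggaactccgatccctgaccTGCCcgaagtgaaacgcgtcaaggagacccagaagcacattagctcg
Neb exon 148 (chr2:52153056-52153148): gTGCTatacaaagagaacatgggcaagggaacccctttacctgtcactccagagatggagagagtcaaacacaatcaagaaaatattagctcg
Neb exon 149 (chr2:52151364-52151456): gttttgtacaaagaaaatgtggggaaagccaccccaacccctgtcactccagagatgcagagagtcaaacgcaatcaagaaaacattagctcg
Of 2410 listed exons of 93 to 114 bases with a sequence, 73.4% held at least 1 of these 4 words, so a match does not set these exons apart. Nebulin repeats resemble each other: 7 exons of 93 bases in this stretch were 53.8% to 86% identical pair by pair, so that reads can be hard to place among them. That was not tested.

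Skipping from exon 142 straight to exon 152 separated the sets. This junction (from 52162068 back to 52149697) had 3, 10 and 3 reads in set 1 and 117, 40 and 65 in set 2. Exons 143, 144, 145 and 149 lie inside it and share its reads, so their 4 called events are 1 observation. Inclusion of exon 145 was 98.9%, 97.6% and 99.0% in set 1 and 73.0%, 84.5% and 78.9% in set 2, and that of exon 149 was 99.0%, 97.3% and 99.1% in set 1 and 74.4%, 86.4% and 79.8% in set 2. A junction from exon 142 to exon 149 had no read in set 1 and 47, 7 and 8 in set 2.

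Exons 138 and 140 were used less in set 1. Inclusion of exon 138 was 46.9%, 39.1% and 44.8% in set 1 and 77.2%, 56.9% and 58.9% in set 2, a difference of -20.7 points, with 2622 junction reads per replicate on average. Inclusion of exon 140 was 67.2%, 60.1% and 67.8% in set 1 and 87.0%, 77.6% and 74.0% in set 2, a difference of -14.5 points. In both, the sets did not overlap, and replicate 1 of set 2 was highest. Exon 148 rests on few reads: 2, 8 and 0 skipping reads in set 1 and none in set 2 gave 90.3%, 67.6% and 100% inclusion against 100% in each replicate of set 2, so that the sets overlap. Exon 146, between exons 145 and 152, was at 28.4%, 16.7% and 24.9% in set 1 and 40.7%, 31.0% and 31.7% in set 2.

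Ryr1 exon 71 is a 15-base exon (chromosome 7, 29056234 to 29056248, minus strand) whose use is known to differ between young and adult muscle. Its inclusion was 65.6%, 71.3% and 68.8% in set 1 and 47.9%, 65.9% and 55.5% in set 2. The ranges overlapped, and the authors' deposited table lists an FDR of 0.0589 for it. Ttn exon 124, called in the authors' deposited table, had 21.2 junction reads per replicate and 47.2% to 91.9% inclusion in set 2, and was not called by the re-test (adjusted p = 0.603).

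For skipped exons the re-test used 1 spread for all events, a dispersion of 1.67. The observed dispersion was 77.4 for Neb exon 138, 56.3 for exon 140 and 15.0 for Ryr1 exon 71. The re-test's p-values for such deeply covered events do not reflect their own spread and are not printed. After the calls had been seen, 7 other ways to model the dispersion were computed. The 4 events on the junction between exons 142 and 152 were called in 6 of the 7, exons 138 and 140 in 5 of the 7 and Ryr1 exon 71 in 1 of the 7. Exon 148 was called in 0 of the 7, exon 150 in 3, and the 2 events of exon 146 in 5 (flanked by exons 145 and 152) and 1 (flanked by exons 145 and 151). With no moderation none of their events was called, and that version recovered 0 of 91 simulated shifts.

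**Figure D5:**
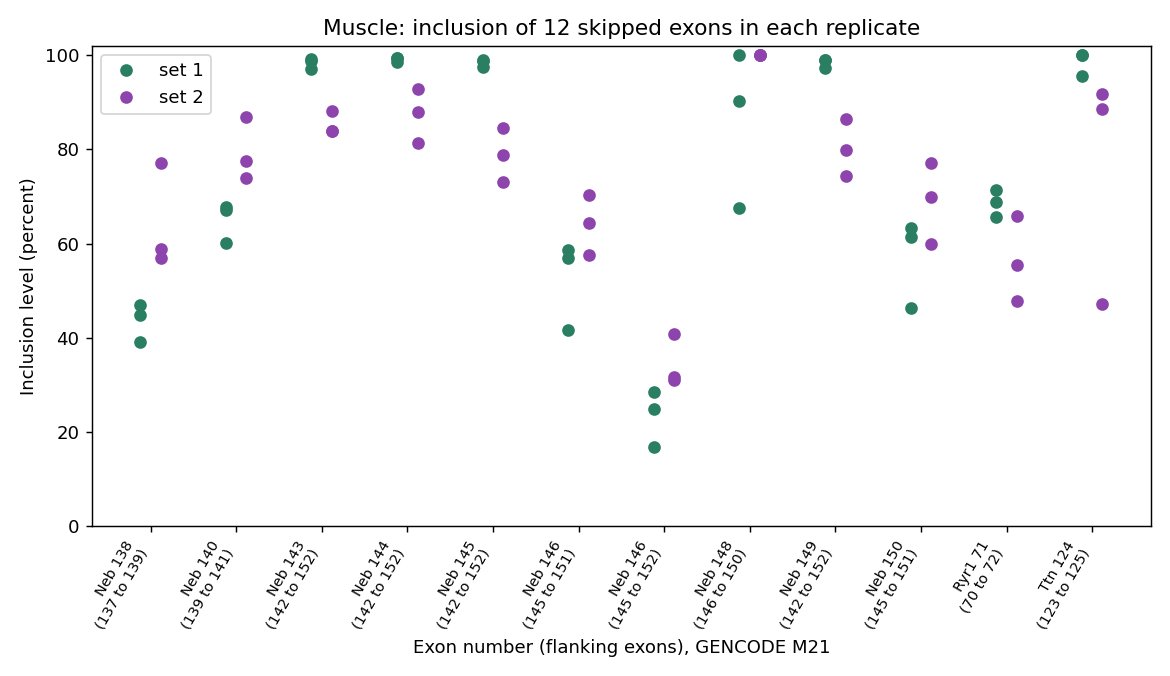
Inclusion level in 12 skipped-exon events in each replicate of sets 1 and 2, in percent, by exon number with the flanking exons in brackets. Sets are apart for Neb exons 138, 140, 143, 144, 145 and 149, for exon 146 between exons 145 and 152, and for Ttn exon 124. They overlap for Ryr1 exon 71, for Neb exons 148 and 150, and for exon 146 between exons 145 and 151.

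Outside Neb, 204 skipped-exon events of the other genes were tested and their median absolute difference was 0.0414 points, against 0.990 over all events. Several of these exons are alternative in this muscle without a call, and those below were chosen after their values were seen. The 18-base exon of Ryr1 was included at 81.2 ± 1.98% in set 1 and 77.8 ± 2.89% in set 2, and the 15-base exon of Ldb3 at 83.7 ± 0.71% and 82.7 ± 1.23%. For mutually exclusive exons, the re-test called none of 125 events of the 42 genes, against 0.243% of all tested. An unadjusted p under 0.05 was found for 30 of the 125, against 8.55% of all tested events. The authors' deposited table calls 4, all in Neb and at differences of -10.9 to -10.4 points, against 1.64%. For these 4 events the re-test used dispersions of 5.05 to 11.6, against 1.67 for every skipped exon. The numbers of re-test calls for the 2 event types thus rest on unlike spreads.

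Tpm3, a slow-fibre tropomyosin gene that other cells use too, was spliced differently across the tissues' tables. Its exon at 90091013 to 90091091 of chromosome 3 was included at 84.5% over the 6 muscle replicates, 17.3% in cerebellum, 17.0% in cortex, 14.6% in hippocampus, 3.25% in liver and 4.12% in testis. The ranges of muscle (77.9% to 94.8%) and of each other tissue did not overlap. Tpm1, the gene of the main fast tropomyosin, included its exon at 67031951 to 67032026 of chromosome 9 at 99.96% in muscle and 13.6% in liver where the far flank was the alternative exon starting at 67032466. With the flank starting at 67032794, inclusion of the same exon was 99.998% in muscle and 96.8% in liver, so the low liver value belongs to the first pair of flanks.

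The same genes were looked up in the other tissues. Of the 42, 8 were in the liver table, 23 in testis and 32 in each brain table, and at least 10 TPM in WT was reached by 3, 3, 7 (cortex), 4 (hippocampus) and 6 (cerebellum). Fbxo32 was called lower in hippocampus, where it had 8.94, 9.18 and 9 TPM in WT and 5.94, 6.47 and 6.33 TPM in KO (-0.52 ± 0.06, edgeR adjusted p = 0.041, against a background of 0.209%). It was not called when any 1 of the 6 libraries was left out. No member was called by edgeR or DESeq2 in cortex, cerebellum, liver and testis, against backgrounds of 0.0203%, 0.226%, 0.411% and 4.27%, with 5, 5, 0 and 0 at an unadjusted edgeR p under 0.05. Tnnc1, the slow and cardiac troponin C, had 46.6, 57.7 and 37.9 TPM in WT cortex and 18.4, 10.5 and 22.6 TPM in KO cortex (-1.46 ± 0.27, adjusted p = 0.0668).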

How the data were processed

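Gene tables of muscle and 5 other tissues held read counts per gene and sample and TPM that the authors deposited, with their own log2 fold changes and adjusted p-values. Splicing tables held junction reads, form lengths and a false discovery rate (a p-value adjusted by the authors) in rMATS format, per the file headers. Per the submitters' processing notes, the tools include STAR 2.6.1, RSEM 1.3.1 and DESeq2 1.16.1, and the build is GRCm38. The inclusion difference, a score from -1 to 1 that the authors deposited, was recomputed from the junction reads, and both matched within 0.115 percentage points. 4 value columns of the muscle table match no sample and were not used. The 42 genes and all lists were chosen with earlier results of these data known. Named were all 42 genes, at most 3 called genes of each other list, and at most 12 events.

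For each tissue, low counts were removed by filterByExpr, TMM gave the scaling, and genes were tested with the edgeR 4.0.16 quasi-likelihood test in R 4.3.3, with Benjamini-Hochberg adjustment over all genes and a call at an adjusted p under 0.05. Errors of log2 fold changes are standard errors. DESeq2 1.42.0 was an alternative. Inclusion levels were re-tested with a quasi-binomial model (limma 3.58.1 moderation across all events) for events whose mean junction reads reached 20 in each set and that had reads of both forms, and called at an adjusted p under 0.05 and a difference of at least 10 points. For skipped exons this moderation gave a single dispersion far below that of deeply covered events. Therefore 7 other versions were tried with the calls of the 42 genes in view. The version planned at the outset stayed the main one. On simulated muscle skipped exons (9761 events), it recovered 72 of 91 shifts of 20 points with 9 false calls. Exon ends matched GENCODE M21 for 99.85% of flanks. Figures used matplotlib 3.10.9 under Python 3.11.15.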

Additional observations from a re-analysis of the deposited data

How the results depend on the processing

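The count of the 42 genes called in muscle was 2 by edgeR, 7 by DESeq2 and 0 to 2 when each library was left out in turn. It was 0 without KO replicate 1, 2 or 3. The count over all genes was 512 by edgeR (25.6% of them lower in KO) and 1097 by DESeq2 (40.3% lower), and 18 to 559 with a library left out, with 37, 157 and 18 without KO 1, KO 2 and KO 3. Of called genes, 16.7% were lower with upper-quartile factors and 7.69% with total counts only, a scaling chosen after seeing the data. With the replicate block, 0 of the 42 genes, 31 of all genes and 0 genes in hippocampus were called. Same-numbered WT and KO libraries did not deviate together (correlations of -0.137, -0.110 and -0.0532). With 3 libraries per group, whose deviations sum to 0, this cannot settle whether the numbers pair the samples. Leaving out a library gave 0 calls in hippocampus against 1, and 0 to 1 in cortex against 0. The slow share difference ran from -0.585 to 0.619 points. For splicing no replicate block was fitted because replicates in those tables carry no numbers from the labels.

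Skipped-exon events of the 42 genes called numbered 11 with the planned moderation and 6 to 16 with a replicate left out (6 without set 2 replicate 1). The deposited call at a false discovery rate under 0.01 and a difference of at least 20 points gave 1. The 7 dispersion versions added after the calls were seen gave 8 with a trend, 8 with a robust trend, and 8, 7 and 7 with trends over events above 3 rising limits of information. They gave 6 with the trend from events of high information and 0 with no moderation. Mutually exclusive exons called were 0 as planned, 4 in the deposited table, 1 with the trend, 2 with the robust trend and 0 in the 5 other versions. The cause of these shifts was not tested.

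Single genes kept direction and side of the threshold in 455 refits, gained a call in 6 and changed direction in 34. No change of direction was for Myh1 or Mybph. A call was lost in 9 refits, all of Myh1 or Mybph, the only genes called in the main fit. Myh1 was called in 9 of 13 fits and Mybph in 8. With total counts only, the log2 fold change turned positive for Myh4 (0.0544), Myl1 (0.0823), Mylpf (0.032), Actn3 (0.0161), Casq1 (0.00666), Tnni1 (0.0892), Ttn (0.0437), Neb (0.0886). With the replicate block it was -0.0351 for Myl2. Over the 6 fits that leave out a library, it took both signs for Myh4 (-0.23 to 0.00619), Myl1 (-0.21 to 0.00303), Myh7 (-0.97 to 0.22), Myl2 (-0.38 to 0.42), Myl3 (-0.61 to 0.11), Tnnt1 (-0.88 to 0.13), Tnni1 (-0.64 to 0.38), Tnnc1 (-0.89 to 0.18), Atp2a2 (-0.70 to 0.19), Myoz2 (-0.53 to 0.12), Myh3 (-1.18 to 0.30), Ttn (-0.35 to 0.28), Neb (-0.24 to 0.16), Tpm3 (-0.86 to 0.0626).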
